A study of Mus musculus with 6 samples.

Results

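The EGF receptor family and its shed ligands are described here in whole mouse kidney after ischemia-reperfusion. The 10 genes were taken by their symbols from a table of 56747 gene rows: the ligand genes Hbegf, Areg, Ereg, Tgfa and Btc, the receptor genes Egfr, Erbb2, Erbb3 and Erbb4, and Adam17, which encodes the protease that releases most of these ligands. Each symbol stood on 1 row, and all 10 were found. Of these, 8 passed the filter on low counts and were tested, and Areg and Ereg did not pass.

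All kidneys came from male wild-type C57BL/6J mice, an inbred laboratory strain, and were injured by stopping the renal blood supply for 30 min and restoring it for 24 h. The saline group (3 libraries) received oral saline for 1 day before the injury, although its treatment label reads "none". The tacrolimus group (3 libraries) received oral tacrolimus, a calcineurin inhibitor used as an immunosuppressant, at 1 mg/kg/day for 1 day. The design text describes the saline group's ischemia as partial and bilateral and the tacrolimus group's as closure of both renal arteries, so any difference in surgery cannot be told apart from the treatment. No uninjured kidney was among the libraries, and every comparison is between injured kidneys. The design names 6 animals per group. Whether the 3 libraries of a group come from 3 of these animals or from pools is not said in the labels. The p-values therefore reflect variation among libraries, which may be partly technical.

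The ligands of this family are made as membrane-anchored precursors, and a cell-surface protease cuts them free. The released ligand binds EGFR, or in some cases ErbB4, and the receptors then pair and switch on the ERK and PI3K cascades. ErbB2 has no known ligand of its own and acts as a pairing partner, and ErbB3, a neuregulin receptor, has little kinase activity. In the kidney, EGF itself is made by the thick ascending limb and distal tubule, and proximal tubule cells carry EGFR, whose activity is known to contribute to tubular regeneration after ischemia.

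Gene totals lay between 38443534 and 44476844 counts per library, with reads on 22512 to 22809 genes. Levels are given in CPM, the counts per 1e6 of a library size scaled by TMM, a method that evens out differences in composition between libraries. Saline replicate 1 stood closer to the tacrolimus libraries than to its own group: the root-mean-square difference in log2 CPM was 0.592 to 0.612 from the tacrolimus libraries, against 0.867 and 1.04 from saline replicates 2 and 3. The tacrolimus libraries differed among themselves by 0.576 to 0.613. No gene was examined here as a check on the treatment label. From the values given, a mislabelled library and a kidney with less injury cannot be told apart for saline replicate 1. Every saline mean includes this library. Cell markers are given mostly with all libraries, although leaving this library out changes many of them too. For the family and the pathway lists, calls are therefore also given without saline replicate 1 where that changes them. That fit compares saline replicates 2 and 3 with the tacrolimus libraries. Because saline replicate 1 was singled out by these same values, the p-values and calls of that fit are descriptive and not an independent test. The tissue carried markers of whole kidney. The proximal tubule markers summed to 8709 to 13720 CPM with saline and 16016 to 18299 CPM with tacrolimus, the thick ascending limb markers to 2685 to 6725 and 6438 to 8443 CPM, and the podocyte markers to 352 to 416 and 367 to 440 CPM. Kap held 3926 to 8550 CPM of the proximal sum with saline and 5085 to 7613 CPM with tacrolimus. Umod held most of the thick ascending limb sum.

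The upstream sequences of 3 ligand genes are shown first, because their patterns over the libraries were unlike. Areg was found in 2 saline libraries only, Tgfa had its highest values in the same libraries, and Btc had its lowest values there. With all libraries neither Tgfa nor Btc passed the test given below, and Areg was too low to test. The sequences are the 250 bases before each annotated start in RefSeq (build GRCm38.p6), read 5′ to 3′ along the gene's strand. They lie at chr5:91139349-91139598 on the plus strand for Areg, chr6:86194972-86195221 on the plus strand for Tgfa and chr5:91402995-91403244 on the minus strand for Btc. For Tgfa, unlike Areg and Btc, the bases after the RefSeq start were not found in a GENCODE transcript, so its positions rest on the RefSeq start alone. Capitals mark matches, on either strand, to the cyclic AMP response element TGACGTCA, the GC box GGGCGG, the TATA box TATAAA and the AP-1 site TGANTCA.
Areg: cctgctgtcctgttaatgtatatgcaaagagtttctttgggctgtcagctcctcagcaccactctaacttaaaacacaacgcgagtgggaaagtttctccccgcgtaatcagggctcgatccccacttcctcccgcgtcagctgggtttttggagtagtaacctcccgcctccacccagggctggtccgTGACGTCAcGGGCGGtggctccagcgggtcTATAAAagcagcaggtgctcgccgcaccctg
Tgfa: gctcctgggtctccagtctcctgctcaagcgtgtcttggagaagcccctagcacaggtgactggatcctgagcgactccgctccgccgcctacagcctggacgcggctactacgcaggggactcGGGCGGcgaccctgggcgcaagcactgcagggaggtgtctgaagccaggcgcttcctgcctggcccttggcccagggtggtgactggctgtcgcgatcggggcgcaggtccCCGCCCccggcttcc
Btc: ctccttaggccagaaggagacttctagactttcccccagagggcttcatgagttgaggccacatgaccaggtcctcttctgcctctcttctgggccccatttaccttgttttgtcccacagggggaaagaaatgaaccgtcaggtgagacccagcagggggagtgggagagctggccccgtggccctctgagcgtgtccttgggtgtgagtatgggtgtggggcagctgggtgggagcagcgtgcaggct
The Areg sequence held a cyclic AMP response element 61 to 54 bases before the start, a GC box at 52 to 47 and a TATA box at 31 to 26, with no overlap among them. The Tgfa sequence held a GC box 126 to 121 bases before the start and another, on the opposite strand, at 15 to 10. None of the 4 motifs was in the Btc window. Windows were read for 7 of the 10 genes. Hbegf, Ereg and Erbb3 were not among them, so the motif counts say nothing about these genes or about whether RefSeq lists them. Of these 7 windows, 1 held the response element, 1 the TATA box, 4 the GC box (Areg, Tgfa, Egfr and Adam17) and 0 the AP-1 site. Among all 32851 promoter windows of this length, 1.55% held the response element, 12.4% the TATA box, 32.7% the GC box and 6.75% the AP-1 site. A match describes letters only, and no binding was measured.

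The question was which of these transcripts tacrolimus-treated kidneys held at another level 24 h after reperfusion began. With all 6 libraries, none of the 8 tested genes passed the test (edgeR's quasi-likelihood test, two-sided, Benjamini-Hochberg adjustment over 17557 genes, threshold 0.05). Among all genes 2 passed, or 0.0114%. By the unadjusted p under 0.05, Hbegf alone of the 8 was counted, with the lower value in tacrolimus, against 12.7% of all genes in either direction and 7.72% in that direction. DESeq2 also called 0 of the 8, against 1.96% of all genes. The groups overlapped in 8 of 8 members, whereas 21.8% of all genes had groups that did not overlap. The members had the lower fitted value with tacrolimus in 4 cases and the higher in 4, with a median log2 fold change of -0.03, beside -0.01 over all tested genes. Without saline replicate 1, Hbegf, Tgfa and Areg were called lower and Erbb4 higher, so that 4 of 9 tested members passed, against 14% of all genes (6.16% lower and 7.85% higher).

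**Figure D1:**
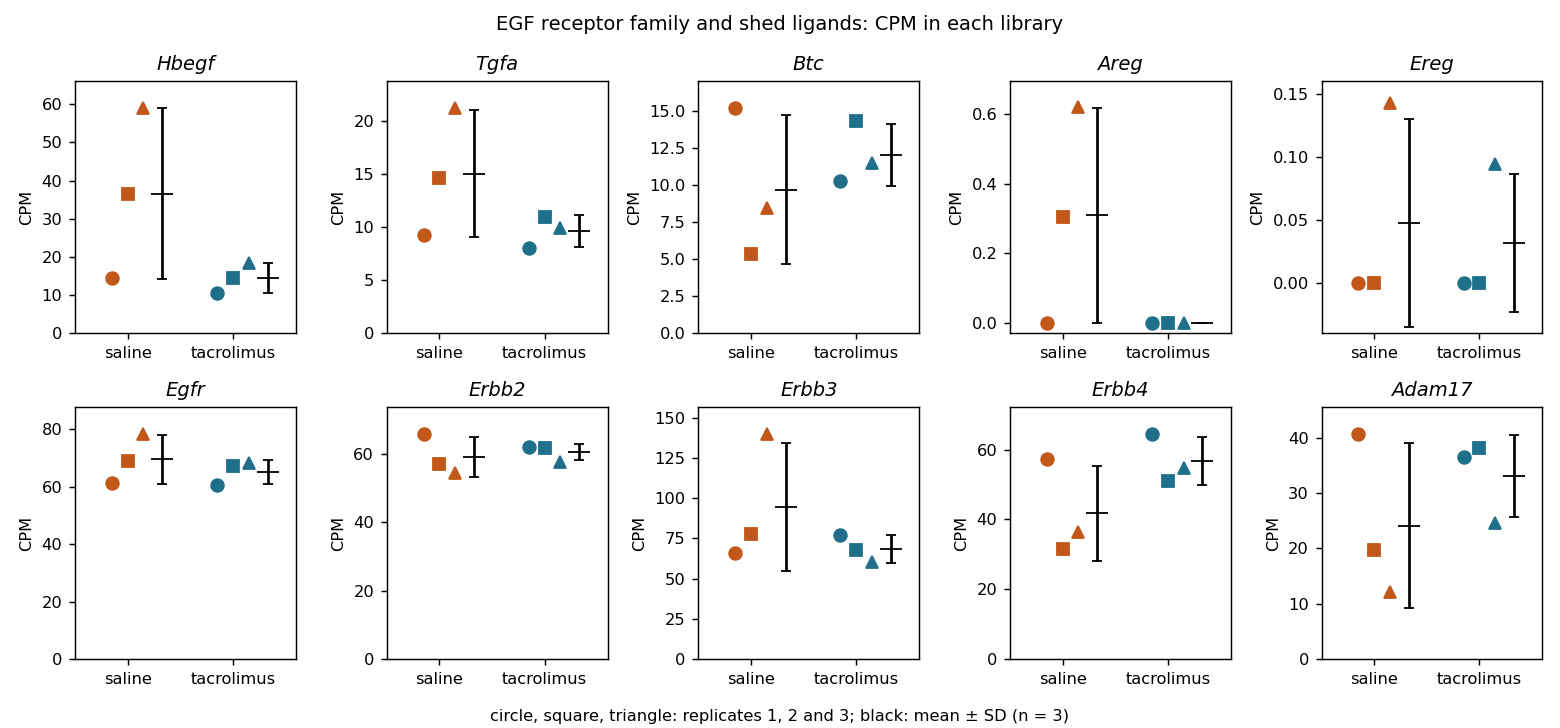
Level of each of the 10 genes in CPM, by group, on axes that start at or just below 0. Coloured points are single libraries (circle, square and triangle for replicates 1, 2 and 3) and black lines the mean ± SD of 3. In the 8 tested panels the groups overlap, with the circle of the saline group near or among the tacrolimus points.

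Among the 8 tested members, Hbegf had the largest fitted difference. It encodes heparin-binding EGF-like growth factor, which binds EGFR and ErbB4, and lies at chr18:36637980-36648858 on the minus strand (GRCm39, as are all gene coordinates that follow; ENSMUSG00000024486). Hbegf stood at 14.4, 36.4 and 59.0 CPM in saline replicates 1 to 3 and at 10.6, 14.6 and 18.4 CPM in tacrolimus replicates 1 to 3. Saline replicates 2 and 3 were thus above every tacrolimus library, and saline replicate 1 lay among them. The means were 36.6 ± 22.3 CPM with saline and 14.5 ± 3.94 CPM with tacrolimus (SD, n = 3 each). The log2 fold change was -1.33 ± 0.49 (SE; 95% interval -2.51 to -0.16), or 2.52-fold lower, with an adjusted p of 0.392 by edgeR and rank 1412 of the 17557 genes by p. With saline replicate 1 left out it was -1.71 ± 0.29, with an adjusted p of 0.0193 by edgeR. Most markers of tubular injury lay the same way. All 10 injured tubule markers had the lower fitted value with tacrolimus. Vcam1 differed least, with a log2 fold change of -0.11, which turned to 0.33 without saline replicate 1. The summed levels were 7898, 31414 and 31240 CPM in saline replicates 1 to 3 and 2650, 3523 and 7800 CPM in the tacrolimus replicates. Spp1 held most of each sum, with 6806, 26785 and 25083 CPM in saline and 2210, 2965 and 6955 CPM in tacrolimus. The part of these markers in the Hbegf level was not tested. In bulk tissue, fewer cells of a type and less RNA per cell cannot be told apart.

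Tgfa encodes transforming growth factor alpha, an EGFR ligand (chr6:86172205-86252701, plus strand; ENSMUSG00000029999). Its range was smaller than that of Hbegf, with 9.28, 14.6 and 21.3 CPM in saline replicates 1 to 3 and 8.07, 10.98 and 9.90 CPM in the tacrolimus replicates. Again saline replicate 1 lay inside the tacrolimus range, and the other saline libraries above it. The means of 15.1 ± 6.00 and 9.65 ± 1.47 CPM (SD, n = 3 each) gave a log2 fold change of -0.64 ± 0.31 (SE; 95% interval -1.38 to 0.09) and an adjusted p of 0.409 by edgeR. Leaving out saline replicate 1 gave a log2 fold change of -0.89, with an adjusted p of 0.0492 by edgeR.

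Areg, which encodes amphiregulin, an EGFR ligand (chr5:91287458-91296291, plus strand; ENSMUSG00000029378), was barely detected. Its counts were 0, 12 and 26 in saline replicates 1 to 3 and 0 in all 3 tacrolimus libraries. Reads were thus found in the 2 saline libraries that also had the most Hbegf and Tgfa. Pooled over each group on library totals without TMM scaling, the 38 saline counts came to 0.308 CPM. With 0 counts in the tacrolimus group a level of up to 0.0237 CPM is allowed (3 counts over the group). The pooled saline level was 13.0 times this limit, with the 38 saline counts taken as exact. The ratio was 6.43 without saline replicate 3, which held 26 of the 38 counts, and 12.9 without saline replicate 2. The 0 in saline replicate 1 allows up to 0.0745 CPM there (3 counts in that library). Intervals and floors cover counting error only. Areg entered the test when saline replicate 1 was left out, with an adjusted p of 0.0419 by edgeR.

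Ereg encodes epiregulin, which binds EGFR and ErbB4, and is a neighbour of Areg (chr5:91222481-91241505, plus strand; ENSMUSG00000029377). It had 6 counts in saline replicate 3, 4 in tacrolimus replicate 3 and 0 in the other libraries, so no difference was detectable at this depth.

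Btc encodes betacellulin, a ligand of EGFR and ErbB4, and lies on the same chromosome as Areg and Ereg (chr5:91505120-91550853, minus strand; ENSMUSG00000082361). Saline replicates 2 and 3 lay below the tacrolimus libraries here, not above them as for Hbegf and Tgfa. It stood at 15.2, 5.36 and 8.48 CPM in saline replicates 1 to 3 and at 10.3, 14.4 and 11.5 CPM in tacrolimus replicates 1 to 3. Saline replicate 1 had the highest value of all 6 libraries, and saline replicates 2 and 3 the lowest. The means of 9.68 ± 5.03 and 12.04 ± 2.10 CPM (SD, n = 3 each) gave a difference that did not pass the test, with a log2 fold change of 0.31 ± 0.38 (SE; 95% interval -0.58 to 1.21; adjusted p 0.677 by edgeR). The log2 fold change without saline replicate 1 was 0.80, with an adjusted p of 0.0965 by edgeR.

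Among the receptors, Egfr was close to level across the 6 libraries (chr11:16702203-16868158, plus strand; ENSMUSG00000020122). It stood at 61.3, 68.8 and 78.3 CPM with saline and at 60.4, 67.1 and 68.1 CPM with tacrolimus. The saline libraries spanned a 1.28-fold range and the tacrolimus libraries a 1.13-fold range, and the groups overlapped. The log2 fold change of -0.09 ± 0.13 (SE) had a 95% interval of -0.40 to 0.22 and an adjusted p of 0.727 by edgeR.

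Erbb2, the pairing partner of the other receptors, varied as little (chr11:98303296-98328542, plus strand; ENSMUSG00000062312). It stood at 66.0, 57.0 and 54.6 CPM with saline and at 62.0, 61.8 and 57.8 CPM with tacrolimus. The highest and the lowest 2 of the 6 values were all saline values. The log2 fold change was 0.03 ± 0.12 (SE; 95% interval -0.25 to 0.31), with an adjusted p of 0.900 by edgeR. Erbb2 overlaps Mien1 on the opposite strand, a gene with 16831 counts over the 6 libraries against 14934 for Erbb2. Whether the counting used strand is not given in the sources used here, so shared reads cannot be told apart. Mien1 stood at 57.6 to 75.5 CPM with saline and 65.6 to 73.2 CPM with tacrolimus.

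Erbb3 (chr10:128403392-128425521, minus strand; ENSMUSG00000018166) stood at 65.6, 77.7 and 140 CPM with saline and at 77.3, 67.9 and 60.1 CPM with tacrolimus. Saline replicate 3 alone stood far above the other 5 libraries. The means were 94.4 ± 39.9 and 68.5 ± 8.62 CPM (SD, n = 3 each). The log2 fold change was -0.46 ± 0.29 (SE; 95% interval -1.16 to 0.23), with an adjusted p of 0.455 by edgeR. Without saline replicate 3 it was -0.07, and without saline replicate 1 it was -0.67, with an adjusted p of 0.135 by edgeR in the latter case.

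Erbb4, a neuregulin receptor with an active kinase that also binds Hbegf and Btc products, was lowest in saline replicates 2 and 3 (chr1:68071345-69147218, minus strand; ENSMUSG00000062209). It stood at 57.3, 31.6 and 36.5 CPM in saline replicates 1 to 3 and at 64.5, 51.0 and 54.8 CPM in tacrolimus replicates 1 to 3. Saline replicates 2 and 3 were below every tacrolimus library, and saline replicate 1 lay among them. The means were 41.8 ± 13.6 and 56.8 ± 6.95 CPM (SD, n = 3 each), 1.36-fold higher with tacrolimus. The log2 fold change of 0.44 ± 0.24 (SE; 95% interval -0.12 to 1.01) had an adjusted p of 0.423 by edgeR. The value was 0.74 without saline replicate 1, with an adjusted p of 0.0278 by edgeR.

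Adam17 encodes the sheddase that cuts the precursors of several of these ligands and of tumour necrosis factor (chr12:21373510-21423633, minus strand; ENSMUSG00000052593). It stood at 40.7, 19.6 and 12.1 CPM with saline and at 36.6, 38.1 and 24.5 CPM with tacrolimus. Saline replicates 2 and 3 were the lowest of the 6 libraries and saline replicate 1 the highest, a 3.37-fold range within the group. The means of 24.1 ± 14.8 and 33.1 ± 7.44 CPM (SD, n = 3 each) gave a log2 fold change of 0.46 ± 0.43 (SE; 95% interval -0.58 to 1.49) and an adjusted p of 0.603 by edgeR. The value without saline replicate 1 was 1.06, with an adjusted p of 0.0610 by edgeR. Adam17 overlaps Iah1 on the opposite strand, which held 19327 counts against 7157, so its level carries the same doubt about strand. Iah1 did not follow the same order: it stood at 62.4, 63.2 and 71.7 CPM with saline and 99.2, 68.4 and 98.5 CPM with tacrolimus.

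**Figure D2:**
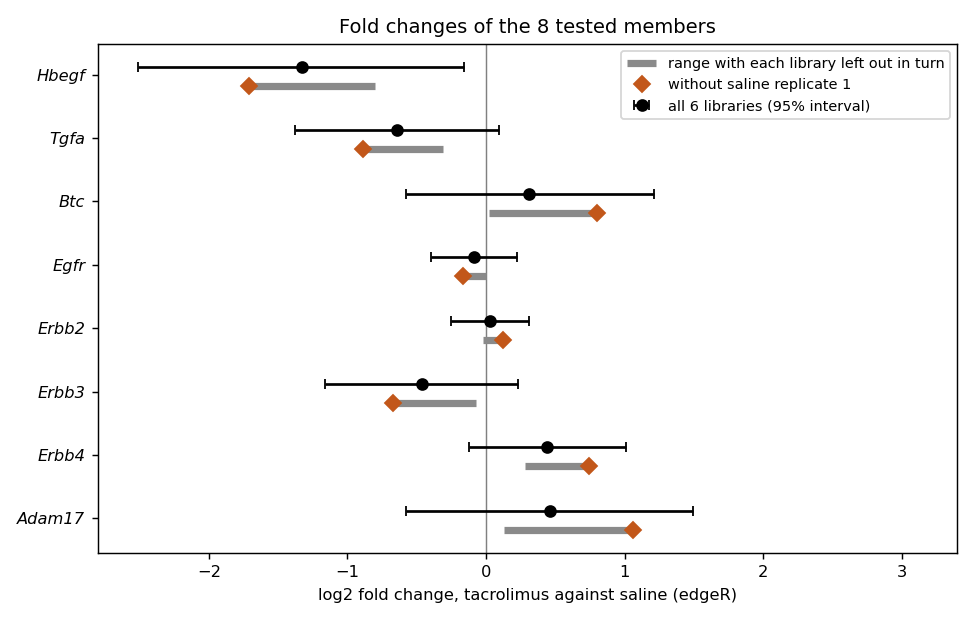
Log2 fold change of each tested gene, tacrolimus against saline, from edgeR. Black points with bars are the estimate and its 95% interval with all 6 libraries, grey bars the range when each library is left out in turn, and orange diamonds the value without saline replicate 1. The diamond is the end of the grey bar farthest from 0 in each of the 8 genes, and the interval excludes 0 for Hbegf only.

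The 8 tested genes shared a layout of libraries. Saline replicates 2 and 3 lay on the same side of every tacrolimus library in 8 of 8, which held for 52.2% of all tested genes. For Egfr and Erbb3 this rested on near ties. Saline replicate 2 stood at 68.8 CPM for Egfr, against 68.1 CPM in tacrolimus replicate 3. For Erbb3 it stood at 77.7 CPM, against 77.3 CPM in tacrolimus replicate 1. Saline replicate 1 lay inside the tacrolimus range for Hbegf, Tgfa, Egfr, Erbb3 and Erbb4, 5 of 8, against 49.2% of all tested genes. On the log2 scale it was nearer to the tacrolimus mean than to either other saline library in 8 of 8, against 60.4% of all tested genes with no 0 value. The tacrolimus libraries were more alike, with highest-to-lowest ratios of 1.07 (Erbb2) to 1.75 (Hbegf), against 1.21 (Erbb2) to 4.11 (Hbegf) among saline libraries.

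Levels between genes were compared per length, on the deposited FPKM values (fragments scaled to gene length and to library size). By the mean FPKM of the 6 libraries, Erbb3 (13.5) and Erbb2 (11.5) came first, followed by Egfr (5.94), Hbegf (5.27), Adam17 (4.00), Erbb4 (3.99), Btc (2.40), Tgfa (1.90), Areg (0.126) and Ereg (0.00957). Erbb3 and Erbb2 did not differ beyond their spread, with 10.0 to 23.04 and 10.4 to 12.7 FPKM over the 6 libraries. The order of Egfr, Hbegf, Adam17 and Erbb4 was likewise within the spread, since Hbegf alone ran from 2.19 to 12.1 FPKM. Within the tacrolimus group, Erbb2 (11.1 to 11.9 FPKM) and Erbb3 (10.0 to 12.9 FPKM) stood above all other members, Egfr (5.34 to 6.04 FPKM) stood above Hbegf (2.19 to 3.83 FPKM), and Tgfa (1.24 to 1.70 FPKM) below Btc (2.27 to 3.18 FPKM). For some genes the FPKM values rest on a longer gene length than the table's length column, by 1.67 times for Hbegf and 1.6 times for Adam17, whereas the lengths matched for Areg, Ereg and Erbb3. With the column's length, Hbegf (8.84 CPM per kb) moves ahead of Egfr (6.60 CPM per kb), and Tgfa (2.73) ahead of Btc (2.70).

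The make-up of the ligand transcripts separated the libraries by the same line. Hbegf made up 38.3%, 67.1% and 68.2% of the summed FPKM of the 5 shed ligands in saline replicates 1 to 3, and 38.4%, 38.2% and 48.2% in the tacrolimus replicates. Btc made up 43.3%, 10.6% and 10.5% with saline, and 39.8%, 40.3% and 32.2% with tacrolimus. The share of Tgfa stayed between 18.3% and 21.8% in all 6 libraries. The ratio of Hbegf to Btc in FPKM was 6.35 and 6.51 in saline replicates 2 and 3, against 0.883 in saline replicate 1 and 0.963, 0.949 and 1.496 with tacrolimus. With the length column in place of the FPKM length, an alternative chosen after seeing the data, these ratios were 9.46 and 9.70 against 1.32 and 1.43, 1.41 and 2.23, so which of the pair is higher in saline replicate 1 and tacrolimus replicates 1 and 2 turns with the length used. The gap between the libraries was there with either length. The summed level of the 5 ligands was 7.77, 11.2 and 17.7 FPKM with saline and 5.70, 7.90 and 7.95 FPKM with tacrolimus.

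Among the receptors the summed level was 33.6, 32.4 and 43.2 FPKM with saline and 35.3, 33.3 and 31.7 FPKM with tacrolimus. The share of Egfr was 15.1% to 19.1% over all 6 libraries. Erbb4 made up 13.8%, 7.86% and 6.77% of the receptor sum in saline replicates 1 to 3, and 14.8%, 12.4% and 14.1% with tacrolimus. The ratio of Erbb3 to Erbb4 in FPKM was 2.35, 5.06 and 7.87 with saline and 2.46, 2.73 and 2.25 with tacrolimus. As ratios, these values show unequal change and not which transcript moved.

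**Figure D3:**
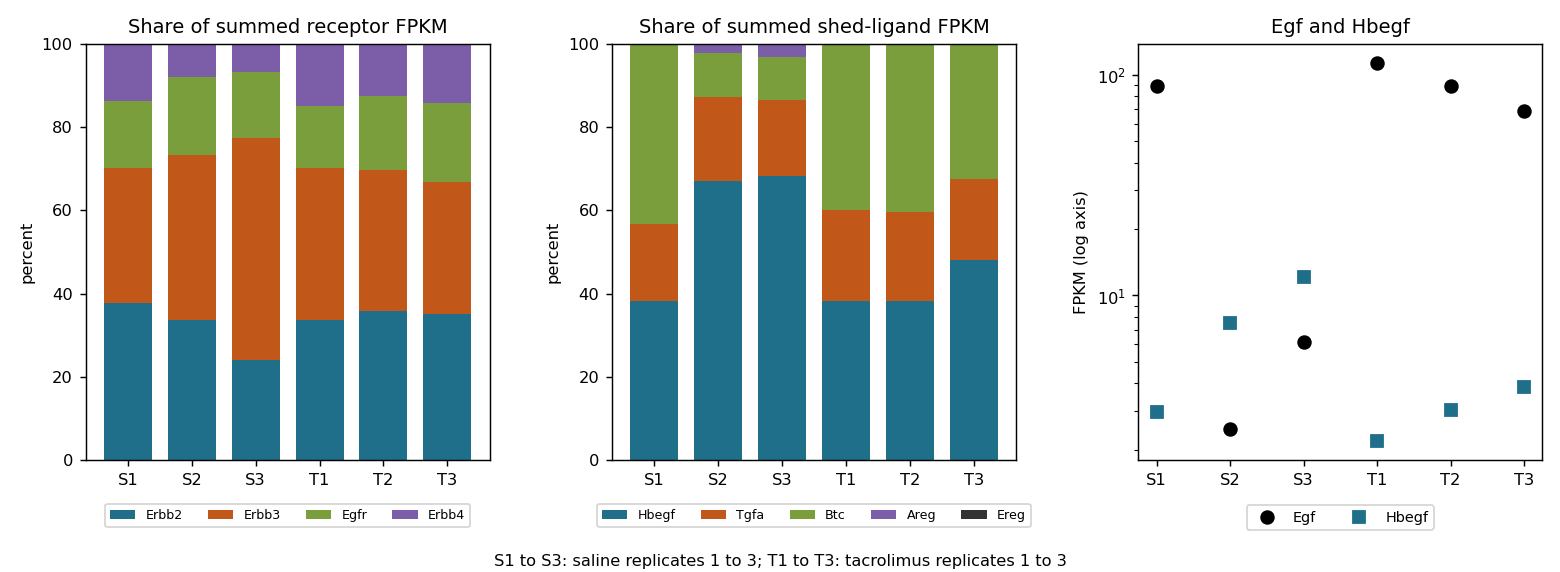
Share of the summed FPKM of the 4 receptors (left) and the 5 shed ligands (middle) taken by each gene in each library, in percent, and the FPKM of Egf and Hbegf (right, log axis). S1 to S3 are the saline and T1 to T3 the tacrolimus libraries. Hbegf takes 67.1% and 68.2% of the ligand sum in S2 and S3 and 38.2% to 48.2% elsewhere, and Egf lies below Hbegf in S2 and S3 only.

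Egf, the gene of EGF itself, stood above the summed shed ligands in 4 of the 6 libraries. It stood at 88.6, 2.48 and 6.18 FPKM in saline replicates 1 to 3 and at 113, 88.8 and 68.4 FPKM in the tacrolimus replicates. Saline replicate 1 lay among the tacrolimus libraries, and the other saline libraries far below them. The ratio of Egf to Hbegf in FPKM was 29.8, 0.330 and 0.511 with saline and 51.8, 29.4 and 17.8 with tacrolimus. In CPM the log2 fold change of Egf was 1.47 ± 1.19 (SE), with an adjusted p of 0.542 by edgeR. Leaving out saline replicate 1 gave 4.37, with an adjusted p of 0.00773 by edgeR.

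Egf was 1 of 6 other EGF-like ligand genes, of which 3 were tested. Nrg3 had 0 counts in every library, and Epgn and Nrg2 were too low to test. Nrg1, the neuregulin that binds ErbB3 and ErbB4, stood at 21.0, 48.2 and 42.3 CPM with saline and at 16.6, 16.8 and 19.7 CPM with tacrolimus. The Nrg1 symbol stood on 2 rows, and the row with the larger summed count was used. Its groups did not overlap, as in 11% of all tested genes with the lower values in tacrolimus. Its log2 fold change was -1.07 ± 0.30 (SE), with an adjusted p of 0.392 by edgeR with all libraries and 0.00604 without saline replicate 1. Nrg4, an ErbB4 ligand, was low in all libraries, with 1.02 to 1.30 CPM with saline and 0.640 to 0.995 CPM with tacrolimus (log2 fold change -0.46 ± 0.32; adjusted p 0.483 by edgeR). None of the 3 passed with all libraries, and Nrg1 (lower) and Egf (higher) passed without saline replicate 1, against 14% of all genes.

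Of 13 shedding proteases and regulators listed, 12 were found and tested, and none passed, with 8 lower and 4 higher and a median log2 fold change of -0.11. Rhbdf2, which encodes an inactive rhomboid protein that escorts ADAM17 to the cell surface, stood at 12.3, 21.9 and 30.9 CPM with saline and at 9.69, 9.91 and 10.8 CPM with tacrolimus. The groups did not overlap, as in 11% of all tested genes with the lower values in tacrolimus. The log2 fold change of Rhbdf2 was -1.10 ± 0.32 (SE; adjusted p 0.392 by edgeR). Rhbdf1, a relative of Rhbdf2, stood at 25.9, 40.6 and 32.1 CPM against 19.8, 25.0 and 23.2 CPM, also without overlap (-0.54 ± 0.19; adjusted p 0.392 by edgeR). Cd9, a tetraspanin that associates with ligand precursors at the membrane, stood at 106, 187 and 188 CPM against 86.7, 101 and 80.0 CPM (-0.84 ± 0.24; adjusted p 0.392 by edgeR). Timp3, the tissue inhibitor of ADAM17, lay the other way, at 1636, 1143 and 886 CPM with saline and 1659, 1726 and 1566 CPM with tacrolimus (0.43 ± 0.23; adjusted p 0.424 by edgeR), with overlap. Without saline replicate 1, 5 of the 12 passed by edgeR, against 14% of all genes in that fit: Rhbdf1, Rhbdf2, Frmd8 and Cd9 lower and Timp3 higher. Adam17 itself had the higher fitted value with tacrolimus, opposite to both of its escorts.

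Of 13 receptor inhibitors and turnover factors none passed with all libraries or without saline replicate 1, with 6 higher and 7 lower and a median log2 fold change of -0.06. Socs5, a suppressor that promotes EGFR breakdown, stood at 32.6, 29.6 and 25.1 CPM with saline and at 38.1, 36.8 and 36.7 CPM with tacrolimus, without overlap, as in 10.7% of all tested genes with the higher values in tacrolimus (0.35 ± 0.13; adjusted p 0.392 by edgeR). Cbl, a ubiquitin ligase of activated EGFR, stood at 28.0 to 41.2 CPM against 44.4 to 46.9 CPM, and Lrig1, a membrane inhibitor of the receptors, at 19.8 to 25.2 CPM against 17.6 to 19.4 CPM, each without overlap. Usp8, a deubiquitinase that acts on endocytosed EGFR, had a log2 fold change of 0.22 ± 0.15 (adjusted p 0.475 by edgeR).

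Of 21 adaptors and cascade kinases none passed, with 9 higher and 12 lower and a median log2 fold change of -0.06. The 4 with the smallest p had log2 fold changes within 0.5 of 0, and 3 of them are described. Akt1, a kinase downstream of PI3K, stood at 97.2 to 136 CPM against 86.8 to 91.3 CPM (-0.35 ± 0.15; adjusted p 0.396 by edgeR), and Mapk3, which encodes ERK1, at 68.4 to 77.7 CPM against 63.5 to 65.2 CPM (-0.20 ± 0.10; adjusted p 0.418 by edgeR). Gab1, a docking protein, was at 22.9 to 35.6 CPM against 35.5 to 42.7 CPM (0.41 ± 0.18; adjusted p 0.401 by edgeR). Without saline replicate 1, 2 of the 21 passed, both lower, against 6.16% of all genes called lower, among them Shc1, an adaptor of activated receptors.

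The 15 transcripts known to be induced by ERK activity had the lower value with tacrolimus in 13 cases and a median log2 fold change of -0.71, beside -0.01 over all tested genes. None passed by edgeR with all libraries, and 5 passed by DESeq2 (Egr1, Fos, Fosl1, Myc and Dusp5, all lower), against 1.96% of all genes. Dusp5, a phosphatase of nuclear ERK, stood at 5.06, 15.7 and 29.1 CPM with saline and at 3.88, 2.61 and 3.08 CPM with tacrolimus (-2.38 ± 0.60; adjusted p 0.392 by edgeR). Fosl1, a subunit of the AP-1 transcription factor, stood at 4.12, 20.7 and 41.1 CPM against 0.611, 1.38 and 3.69 CPM (-3.53 ± 0.97; adjusted p 0.392 by edgeR). In both genes the groups did not overlap, as in 11% of all tested genes with the lower values in tacrolimus. Saline replicate 1 was the saline library nearest to the tacrolimus values in both. Fos stood at 2.57, 6.63 and 13.8 CPM against 1.46, 1.90 and 1.85 CPM, and Myc at 11.8, 39.4 and 50.2 CPM against 9.43, 8.21 and 12.4 CPM, with log2 fold changes of -2.14 ± 0.58 and -1.76 ± 0.50. Without saline replicate 1, 8 of the 15 passed by edgeR, all lower, against 6.16% of all genes called lower in that fit. These transcripts also respond to other signals, and the part of this receptor family in their levels was not tested.

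**Figure D4:**
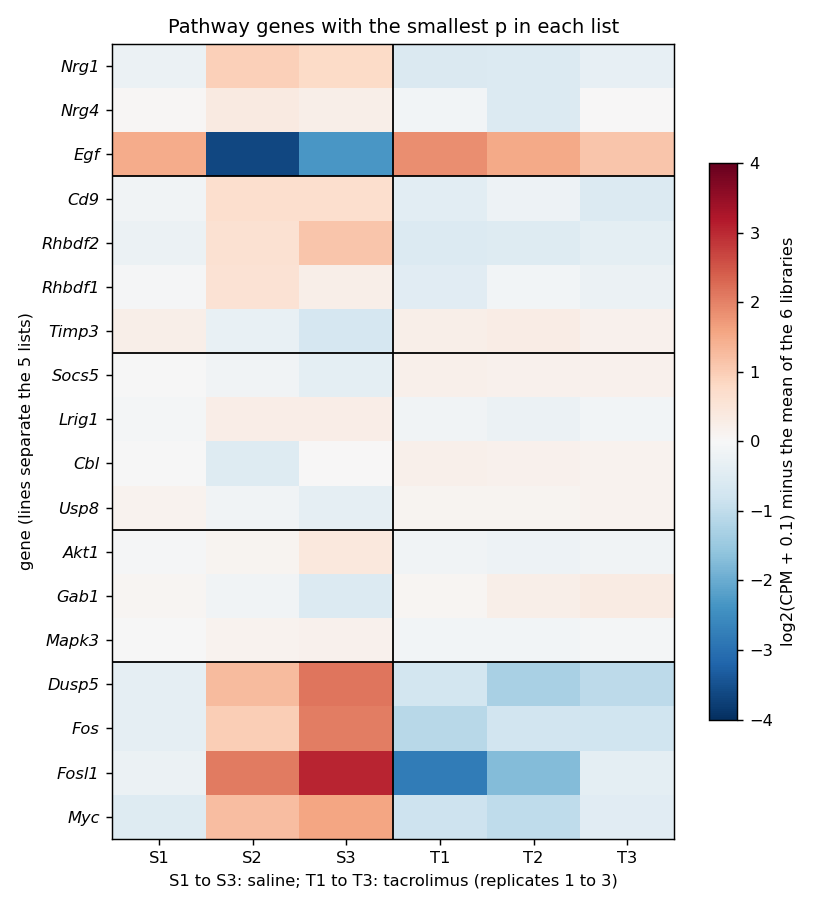
Genes of 5 pathway lists with the smallest unadjusted p, 3 or 4 from each, as log2(CPM + 0.1) minus the gene's mean over the 6 libraries (colour, from -4 to 4). Columns are saline (S1 to S3) and tacrolimus (T1 to T3) libraries, and lines separate the lists. S2 and S3 are below the mean in Egf and above it in Dusp5, Fos, Fosl1 and Myc, and S1 resembles the tacrolimus columns in Egf.

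Single markers of tubular injury were also highest in saline replicates 2 and 3, but saline replicate 1 did not lie among the tacrolimus libraries. Havcr1, which encodes kidney injury molecule, stood at 268, 1598 and 1081 CPM with saline and 14.95, 57.7 and 118 CPM with tacrolimus. Lcn2, an injury-induced lipocalin, stood at 77.1, 517 and 2600.5 CPM against 47.4, 31.4 and 72.2 CPM, and Krt20, a keratin of injured tubules, at 13.4, 216 and 631 CPM against 3.01, 4.03 and 7.96 CPM. In all 3 genes saline replicate 1 was the lowest saline library and still stood above every tacrolimus library. Groups without overlap and lower in tacrolimus were found in 11% of all tested genes. With all libraries none of the 3 passed by edgeR (adjusted p 0.392 each), and all 3 passed by DESeq2, against 1.96% of all genes. Krt20 and Lcn2 were highest in saline replicate 3, as were Hbegf, Tgfa, Areg, Egfr and Erbb3, while Havcr1 was highest in saline replicate 2.

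Most segment markers lay the same way as Erbb4, Btc, Adam17 and Egf. All 10 proximal tubule markers and all 6 thick ascending limb markers had the higher fitted value with tacrolimus. Kap and Cldn16 differed least within these lists, with log2 fold changes of 0.14 and 0.12, and Kap turned to -0.01 without saline replicate 1. Both were highest in saline replicate 3, at 8550 and 11.6 CPM. Slc34a1, a phosphate transporter of the proximal tubule, stood at 1987, 335 and 224 CPM with saline and at 1981, 2565 and 2435 CPM with tacrolimus. Umod, which encodes uromodulin of the thick ascending limb, stood at 4927, 2352 and 5984 CPM with saline and 5765, 5016 and 4832 CPM with tacrolimus. Umod was thus higher in saline replicate 3 than in any tacrolimus library, whereas Egf was lower there. Distal convoluted and connecting tubule markers summed to 393 to 763 CPM with saline and 686 to 1193 CPM with tacrolimus, with 5 of 6 higher, and collecting duct markers to 370 to 685 CPM and 579 to 774 CPM, with 7 of 9 higher.

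Among the markers of other cells, the 6 tested neutrophil genes had the lower value with tacrolimus, summed to 10.8, 26.4 and 36.7 CPM with saline and 6.44, 5.27 and 4.17 CPM with tacrolimus. Ly6g, a defining neutrophil marker, had 0 counts in all 6 libraries. Of the 8 macrophage and monocyte markers 4 were higher and 4 lower, summed to 66.2 to 95.2 CPM with saline and 77.1 to 96.8 CPM with tacrolimus. Endothelial markers (198 to 328 against 320 to 378 CPM) and fibroblast and pericyte markers (153 to 341 against 374 to 451 CPM) had the higher value with tacrolimus in 6 of 6 genes each. The urothelial markers summed to 1.32 to 6.47 CPM with saline and 1.75 to 17.98 CPM with tacrolimus. T and natural killer cell markers summed to 0.737 to 2.25 and 1.79 to 3.20 CPM, and B and plasma cell markers to 0.381 to 1.33 and 0.995 to 2.05 CPM. The part of the injury, segment and immune cell markers in the levels of the EGF receptor family was not tested.

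The genes most like Hbegf over the 6 libraries, by the root-mean-square difference in mean-centred log2 CPM among 12986 genes, were Rhou (0.144), Klf6 (0.146), Cd68 (0.175), Shtn1 (0.182) and Fndc4 (0.184). Klf6 encodes a transcription factor and Cd68 a lysosomal protein of macrophages. Their log2 fold changes lay between -1.46 and -1.20, and none passed by edgeR. The genes most like Egfr were Ykt6 (0.0287), Zbtb10 (0.0334), Reep3 (0.0371), Elf1 (0.0387) and Minpp1 (0.0393), whose log2 fold changes lay between -0.15 and -0.11. Likeness over 6 libraries is a description and carries no test.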

How the data were processed

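Whole-kidney RNA-seq of 6 libraries was used, grouped by sample title. Per the file headers, the deposited table holds raw counts and FPKM for every gene in every library. The counts are whole numbers and not normalized. The deposited FPKM values are scaled by gene length and by library totals of 0.950 to 1.03 times the count sum. GRCm39 is the genome build that the submitters' processing notes name. Per the labels' protocols, RNA was extracted with TRIzol or a column kit, whereas the design text speaks of a homogenate's supernatant. The labels name a single batch. The sources used here give no aligner, counter or strand use. The series title names another drug, zafirlukast, and the sample labels name tacrolimus. Of the table's lines, 1 is blank and was left out.

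Counts were fitted with edgeR 4.0.16 in R 4.3.3. The low-count filter was filterByExpr (minimum count 10, minimum total 15), and TMM factors were 0.942 to 1.03. Tests were two-sided (glmQLFit, robust, and glmQLFTest), with Benjamini-Hochberg adjustment over 17557 genes at a threshold of 0.05. The biological coefficient of variation was 0.304. The F statistic and the fold change gave the SE, and CPM uses the TMM-scaled library size. Alternatives used DESeq2 1.42.0, limma 3.58.1 on log2(FPKM + 0.1) and log2(FPKM + 1), RLE scaling, no filter, a replicate block and each library left out. The fit was tested on simulated counts, and no pair of libraries agreed within sampling noise. For most genes named the spread between libraries sets the error, and below 1 CPM counting adds to it.

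The genes, lists and tests were chosen with earlier results of these data known. Named are all 10 genes of the family, up to 4 tested genes of each pathway list with the smallest unadjusted p, the markers Havcr1, Lcn2, Krt20, Slc34a1, Umod and Egf, and the 5 genes most like Hbegf and Egfr with a mean of at least 1 CPM. Other genes are named as members of counts of calls, as overlapping genes, or as list members at 0 or too low to test. Vcam1, Spp1, Kap and Cldn16 are named as markers that depart from their list or weigh on its sum. Of the genes the rule names, 1 is not reported here. The symbol Nrdc was not matched in the table.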

Additional observations from a re-analysis of the deposited data

How the results depend on the processing

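Of 96 fold changes of the 8 tested genes under 12 alternatives, 91 kept their direction and their side of the threshold. Egfr turned from -0.09 to 0.00 and Erbb2 from 0.03 to -0.02 on the log2 scale without saline replicate 3, and over the left-out libraries they ranged from -0.17 to 0.00 and from -0.02 to 0.12. Hbegf, Tgfa and Erbb4 passed only without saline replicate 1 (-1.71, -0.89 and 0.74). Left-out libraries moved the members called between 0 and 4 and the genes called among all genes between 0 and 2534, the highest values without saline replicate 1. The 2 genes called by edgeR became 344 with DESeq2 and 1 each with limma on log2(FPKM + 0.1) and log2(FPKM + 1). RLE scaling and no filter left 2. In the pathway lists, calls over the left-out libraries ranged from 0 to 2 for other ligands, 0 to 5 for shedding regulators, 0 to 2 for adaptors and 0 to 8 for ERK-induced transcripts, for which DESeq2 called 5. The median of the other ligands, -0.46, was -0.06 with limma on log2(FPKM + 1), and that of the receptor inhibitors ranged from -0.09 to 0.07 over the left-out libraries. The cause was not tested. Areg and Ereg, with 38 and 10 counts, are limited by depth.

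With the replicate number as a block, 1 gene was called and no member. Same-numbered libraries did not deviate together (correlations of -0.0229, -0.00946 and -0.0474), and not every library correlated best with its own number. With 3 libraries per group this check can miss a pairing, so a pairing was neither shown nor excluded.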
